A study of Mus musculus with 8 samples.

Results

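The V1 sector of the lysosomal proton pump was examined through 8 genes that encode its subunits, Atp6v1a, Atp6v1b2, Atp6v1c1, Atp6v1d, Atp6v1e1, Atp6v1f, Atp6v1g1 and Atp6v1h. Members were the regions whose assigned gene name in the deposited table is one of these 8 symbols. All 8 were found among 18707 symbols, and they held 57 of the 129304 regions. The mark was acetylation of histone H3 at lysine 27 (H3K27ac), which lies on active promoters and enhancers, measured by chromatin immunoprecipitation and sequencing. Brain nuclei of wild-type mice (WT) were set against those of Grn knockout mice (GrnKO), in which the gene of progranulin, a secreted protein that reaches lysosomes, is knocked out. All mice were C57BL/6 and 2 years old. Nuclei from frozen hemibrains were sorted as PU.1+, OLIG2- and NEUN-, a gate for microglia that other PU.1+ cells of the brain can also pass. For every replicate nuclei of 2 mice were pooled. WT and GrnKO each had 2 H3K27ac libraries and 2 input libraries, which are chromatin without immunoprecipitation. No other treatment or allele is named in the labels.

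The vacuolar proton pump acidifies lysosomes and endosomes, and lysosomal hydrolases need that acid. Its V1 sector sits in the cytosol and hydrolyses ATP, which turns a central shaft that drives protons through the membrane-bound V0 sector. The sectors can come apart and rejoin, which switches the pump off and on. In microglia and other macrophages the pump acidifies the compartments that digest engulfed material. Transcription factors of the MiT/TFE family, among them TFEB and TFE3, act on many lysosomal genes through elements built on CACGTG.

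The promoter sequences are shown because the acetylated regions described below lie on them. The RefSeq table of the GRCm38.p6 assembly gave promoters for 4 of the 8 members, and the 250 bases before each start site are printed 5′ to 3′ on the strand of the gene. CACGTG was searched on both strands, as were its extension TCACGTG, the full CLEAR palindrome (named for coordinated lysosomal expression and regulation) around it, and the related TCATGTG. The first 3 overlap each other, and capitals mark a match over both strands.
Atp6v1a, chr16:44139260-44139509, minus strand: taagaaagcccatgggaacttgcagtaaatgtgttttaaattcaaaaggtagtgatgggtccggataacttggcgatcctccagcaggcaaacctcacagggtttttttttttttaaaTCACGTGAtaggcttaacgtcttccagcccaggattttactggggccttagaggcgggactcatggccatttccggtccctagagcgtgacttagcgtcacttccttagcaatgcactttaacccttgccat
Atp6v1d, chr12:78861639-78861888, minus strand: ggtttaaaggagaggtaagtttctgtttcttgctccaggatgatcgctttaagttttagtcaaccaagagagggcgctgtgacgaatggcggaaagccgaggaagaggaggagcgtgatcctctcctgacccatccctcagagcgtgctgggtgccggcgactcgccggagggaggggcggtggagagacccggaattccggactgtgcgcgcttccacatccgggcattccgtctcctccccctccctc
Atp6v1e1, chr6:120822699-120822948, minus strand: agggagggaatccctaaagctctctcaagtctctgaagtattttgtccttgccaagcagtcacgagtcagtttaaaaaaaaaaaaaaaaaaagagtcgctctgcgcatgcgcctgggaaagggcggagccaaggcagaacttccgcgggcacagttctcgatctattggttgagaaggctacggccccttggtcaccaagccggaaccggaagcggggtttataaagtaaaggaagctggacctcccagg
Atp6v1f, chr6:29467533-29467782, plus strand: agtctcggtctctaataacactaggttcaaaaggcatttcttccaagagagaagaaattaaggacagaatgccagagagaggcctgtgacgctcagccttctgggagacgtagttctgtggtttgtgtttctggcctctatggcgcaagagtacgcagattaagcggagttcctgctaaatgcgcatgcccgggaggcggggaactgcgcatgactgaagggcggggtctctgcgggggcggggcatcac
Of these 4, the Atp6v1a promoter held a match, TCACGTGA, 132 to 125 bases before its start, which reads as TCACGTG on both strands. These letters lie inside the accessible region nearest to the Atp6v1a start. The promoters of Atp6v1d, Atp6v1e1 and Atp6v1f held none of the 4 motifs in this window. Of 32851 promoter windows of the same length, 6.02% held CACGTG, 3.13% held TCACGTG, 0.24% held the palindrome and 3.25% held TCATGTG. The windows differed in base composition, with 46.4% G or C in Atp6v1a, 59.6% in Atp6v1d, 51.2% in Atp6v1e1 and 54.4% in Atp6v1f. Among 22 other pump genes with a window, CACGTG was found in 3 (Atp6v0b, Vma21 and Ccdc115) and TCATGTG in 1 (Atp6v0c).

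Values are normalised tags, which are the deposited tags per 10000000 tags of a library after scaling by the trimmed mean of M values (TMM). The H3K27ac libraries held 15491642.5 to 20030832 tags and the inputs 4078179 to 14415969. One WT library stood apart in enrichment: 49.4% of its tags lay in the listed regions in WT replicate 1, against 63.3% to 65.7% in the other 3. At the highest Grn region, which lies 631 bp upstream of the start, H3K27ac was 708 and 553 normalised tags in WT and 6.79 and 6.00 in GrnKO, so all 4 labels fitted the targeted gene. For the check of cell types, the highest region within 1000 bp of the start of each marker was summed. All 8 microglia markers had such a region, and their sum was 4126 and 4676 in WT against 3630 and 3750 in GrnKO. Sums ranged over the 4 libraries from 0 to 3.91 for 6 neuron markers, 0.786 to 18.4 for 5 astrocyte markers, 52.8 to 83.7 for 6 oligodendrocyte markers, 91.1 to 114 for 4 border macrophage markers and 0 to 2.74 for 4 lymphocyte markers. Of 4 endothelial markers Flt1 alone had a proximal region, at 7.04 and 13.6 in WT and 60.0 and 62.5 in GrnKO. Of 4 neutrophil markers S100a8 alone had one, at 0 and 5.24 in WT and 20.4 and 18.7 in GrnKO. Thus the microglia sum was lower and Flt1 and S100a8 higher in both GrnKO libraries, though Csf1r, Spi1 and Fcrls overlapped between genotypes, and the part of these values in the results was not tested. In sorted bulk nuclei, a different share of acetylated nuclei and a different amount of mark per nucleus cannot be told apart.

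Summed over all regions of each gene, H3K27ac was higher in GrnKO at 5 of the 8 V1 genes and lower at none (limma, Benjamini-Hochberg adjusted over 15380 genes, threshold 0.05). The 5 were Atp6v1a, Atp6v1d, Atp6v1e1, Atp6v1g1 and Atp6v1h. They encode subunits A, D, E, G and H, while those of subunits B, C and F were not called. Over all 15380 genes tested, 9.54% were called higher and 4.88% lower. At an unadjusted p under 0.05, 5 V1 genes were higher and 0 lower, where 15.2% and 11.5% of all genes were, and edgeR and DESeq2 called none lower. Under the authors' scaling 90.8% of the genes called were higher, against 66.2% with TMM. Both GrnKO libraries lay above both WT libraries at the same 5 V1 genes, where 27.4% of all genes showed that order. The median log2 change was 0.77 over the 8 genes and -0.0099 over all genes. Without GrnKO replicate 1 or 2 Atp6v1a alone kept its call, where 5.64% and 6.98% of all genes were called in either direction. Without WT replicate 1, the library with the lower enrichment, the same 5 genes were called (20.9% of all genes in either direction), and without WT replicate 2 Atp6v1c1 and Atp6v1f were called too (23.8%).

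**Figure D1:**
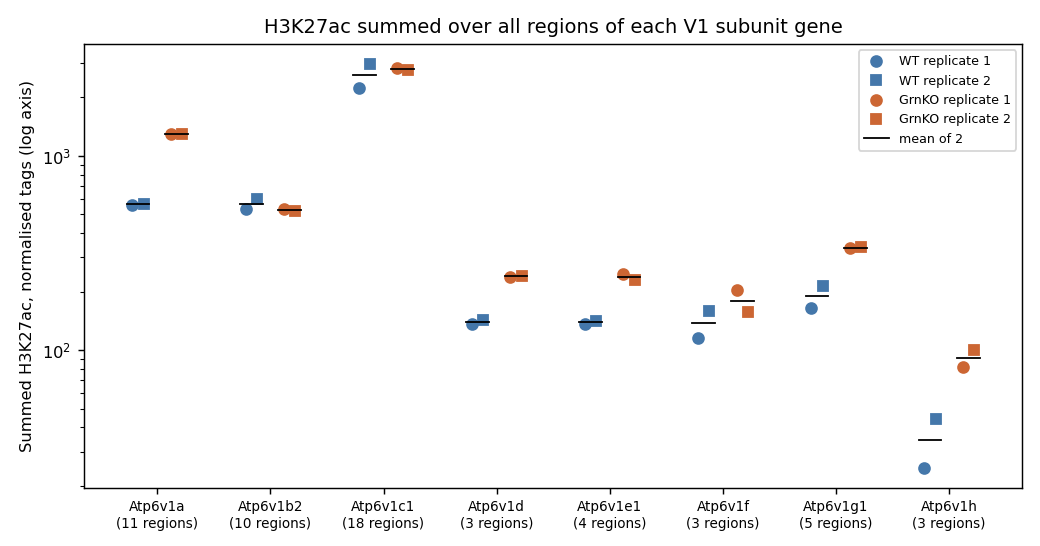
H3K27ac summed over all regions of each V1 subunit gene, in normalised tags on a log axis, with 1 point per library and a line at the mean of the 2 libraries of a genotype. The GrnKO points lie above the WT points at Atp6v1a, Atp6v1d, Atp6v1e1, Atp6v1g1 and Atp6v1h, mix with them at Atp6v1c1 and Atp6v1f, and lie below them at Atp6v1b2.

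Subunits A and B form the ring that binds ATP, and subunit A carries the catalytic sites. Atp6v1a, the gene of subunit A, held 561 and 562 normalised tags in WT and 1293 and 1299.6 in GrnKO over its 11 regions. The genotypes differed by 2.31-fold, a log2 change of 1.21 (SE 0.11, limma adjusted p = 5.75e-06). Before TMM the sums were 473 and 584 scaled tags in WT and 1378 and 1391 in GrnKO. Atp6v1b2, the gene of the B isoform found in most tissues, held 534 and 596 in WT and 532 and 521 in GrnKO over 10 regions. Both GrnKO values were below both WT values, but by less than the WT values differed, and the log2 change of -0.10 did not pass (SE 0.13, 95% interval -0.38 to 0.19, limma adjusted p = 0.707). Under the authors' scaling without TMM its change was 0.090.

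Subunits D and F form the central shaft that the ring turns. Atp6v1d held 136.0 and 142 normalised tags in WT and 238 and 241 in GrnKO over 3 regions, with a log2 change of 0.78 (SE 0.19, limma adjusted p = 0.00988). Both GrnKO libraries were clear of both WT libraries. Atp6v1f held 116 and 159.6 in WT and 203 and 157 in GrnKO over 3 regions. These groups overlapped, since GrnKO replicate 2 lay between the WT libraries, and the log2 change of 0.39 did not pass (SE 0.22, 95% interval -0.089 to 0.87, limma adjusted p = 0.298). With overlapping regions left out it was -0.056.

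Subunits E and G form the peripheral stalks that hold the ring still against the shaft. Atp6v1e1 held 136 and 141 normalised tags in WT and 245 and 228 in GrnKO over 4 regions, a log2 change of 0.77 (SE 0.19, limma adjusted p = 0.0116). Atp6v1g1 held 165 and 213 in WT and 335 and 338 in GrnKO over 5 regions, a log2 change of 0.84 (SE 0.18, limma adjusted p = 0.00476). At both stalk genes the libraries of the genotypes did not overlap.

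Subunit C clamps the stalks to the V0 sector and leaves the complex when the sectors part, and subunit H joins the sectors and blocks ATP hydrolysis in free V1. Atp6v1c1 had the highest sum of the 8 genes, with 2226 and 2961 normalised tags in WT and 2826 and 2763 in GrnKO over 18 regions. Both GrnKO libraries lay between the WT libraries, and the log2 change was 0.12 (SE 0.12, 95% interval -0.12 to 0.37, limma adjusted p = 0.567). It was -0.084 without WT replicate 1 and 0.33 without WT replicate 2. Atp6v1h had the lowest sum, with 24.8 and 44.2 in WT and 81.5 and 99.8 in GrnKO over 3 regions. Its fold was 2.63-fold, a log2 change of 1.42 (SE 0.34, limma adjusted p = 0.0103), which exceeded that of Atp6v1a. Without WT replicate 1 the order of these 2 genes was the opposite (1.01 at Atp6v1h and 1.20 at Atp6v1a), and the ratio between the WT libraries of Atp6v1h was the highest of the 8. Sums count the tags of overlapping regions more than once and grow with the number of regions, so they rank regions assigned to a gene and not its transcription.

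Input gave little signal at most of these genes. Pooled over the 4 inputs, it was 1.19% (Atp6v1g1) to 8.91% (Atp6v1h) of the mean H3K27ac sum. The highest input set against the lowest H3K27ac library gave 52.9% at Atp6v1h, 65.2% at Atp6v1f and at most 17.7% at the other 6 genes. The shallowest input, of WT replicate 1, had 0 tags at 7 of the 8 genes, which allows up to 3 tags or 7.36 scaled tags. At the remaining gene, Atp6v1f, it had 26 tags, all in the region 1551 bp downstream of the start. The input of GrnKO replicate 2 held 67.3 scaled tags in 1 Atp6v1a region, 12223 bp downstream of the start, and that region was not among those called. This floor covers counting error only.

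Of the 57 regions, 52 had enough tags to be tested, and 13 of these were higher in GrnKO and none lower (limma, adjusted over 80728 regions). Of all regions tested, 6.80% were called higher and 2.92% lower, so that 70.0% of the calls were higher, against 95.2% under the authors' scaling. At an unadjusted p under 0.05, 24 member regions were higher (46.2%) and 2 lower (3.85%), where 13.9% and 9.98% of all regions were, and edgeR and DESeq2 called none lower. Atp6v1a held 8 of the 13, Atp6v1g1 held 2, and Atp6v1c1, Atp6v1d and Atp6v1h held 1 each. The median log2 change was 0.70 over the 52 regions and -0.0020 over all regions. Regions were 800 bp wide and 41 of the 57 remained when overlapping ones were left out, so neighbouring regions share tags. Without GrnKO replicate 1 or 2 the member calls numbered 5 and 4, of which 4 each lay in Atp6v1a, where 1.41% and 1.80% of all regions were called higher. Without WT replicate 1 or 2, 15 and 22 were called higher, where 10.6% and 11.9% of all regions were, and 3 were called lower without WT replicate 1, where 5.49% of all regions were.

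**Figure D2:**
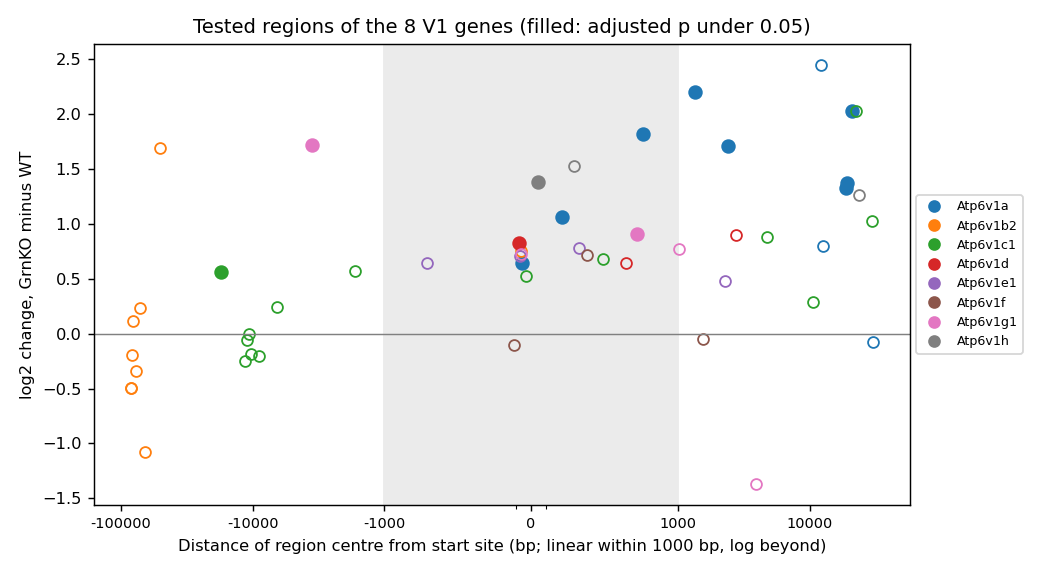
The log2 change of H3K27ac in each of the 52 tested regions, by the distance of its centre from the start site in bp (linear within 1000 bp, which is shaded, and log beyond), coloured by gene and filled where the adjusted p was under 0.05. All but 1 of the regions in the shaded band lie above 0, while those far upstream of Atp6v1b2 and Atp6v1c1 lie on both sides of it.

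Within 1000 bp of the start sites 6 of 17 V1 regions were called higher in GrnKO and none lower, where 3.57% of all such regions were called higher. Without GrnKO replicate 1, and also without GrnKO replicate 2, 1 call was left, the Atp6v1a region 763 bp downstream. The 17 regions share tags and reduce to 9 that do not overlap. In 16 of the 17, both GrnKO libraries exceeded both WT libraries, where 23.7% of all such regions did. The median log2 change of the 17 was 0.72, against -0.0062 over all such regions. The 1 exception was the region 117 bp upstream of Atp6v1f (chr6:29467266-29468066), with 50.4 and 66.5 normalised tags in WT and 63.1 and 45.9 in GrnKO. Its neighbour at 379 bp downstream held 53.6 and 81.7 in WT and 125.9 and 94.8 in GrnKO. This neighbour missed the threshold (log2 change 0.71, limma adjusted p = 0.0924) but was called higher with the replicate block (limma adjusted p = 0.0318). Its log2 change was 0.41 without WT replicate 1 and 1.01 without WT replicate 2.

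The region nearest to the start was called at 3 of the 8 genes, where 3.57% of all proximal regions were called higher. Without GrnKO replicate 1 or 2 none of these 3 kept its call, with adjusted p from 0.158 to 0.405 (limma). At Atp6v1a (63 bp upstream, chr16:44138922-44139722), it held 170.5 and 157 normalised tags in WT and 237 and 274 in GrnKO (log2 change 0.64, SE 0.17, limma adjusted p = 0.0205). At Atp6v1d (81 bp upstream, chr12:78861319-78862119), it held 70.4 and 68.6 in WT and 123 and 125 in GrnKO (log2 change 0.82, SE 0.22, limma adjusted p = 0.0240). At Atp6v1h (44 bp downstream, chr1:5082730-5083530), it held 12.1 and 23.3 in WT and 40.4 and 51.2 in GrnKO (log2 change 1.38, SE 0.40, limma adjusted p = 0.0376). The Atp6v1h call was lost with no filter, with edgeR and with DESeq2. All 3 regions are annotated as promoter. At Atp6v1a and Atp6v1d that annotation names a RefSeq transcript of a neighbouring gene, Naa50 and Eif2s1, so the mark there cannot be assigned to one gene of the pair.

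At 4 further genes the nearest region had both GrnKO libraries above both WT libraries and missed the threshold. It held 38.7 and 41.4 in WT and 63.4 and 72.9 in GrnKO at Atp6v1b2, 72 bp upstream (log2 change 0.75, limma adjusted p = 0.109). At Atp6v1c1, 37 bp upstream, it held 79.0 and 105 in WT and 133 and 131 in GrnKO (0.53, limma adjusted p = 0.142). At Atp6v1e1, 75 bp upstream, it held 62.2 and 63.4 in WT and 108 and 98.5 in GrnKO (0.71, limma adjusted p = 0.0660). The stalk gene Atp6v1g1, 71 bp upstream, gave 55.9 and 66.3 in WT and 105 and 97.8 in GrnKO (0.72, limma adjusted p = 0.0667). The region of Atp6v1e1 was called under the authors' scaling, the replicate block and without either WT replicate, and that of Atp6v1g1 under the authors' scaling, the replicate block and without WT replicate 2 (limma adjusted p from 0.014 to 0.049). That of Atp6v1c1 was called without WT replicate 2 (limma adjusted p = 0.0162). Of these 4 log2 changes, those other than at Atp6v1c1 exceeded that of the called Atp6v1a region.

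When tags were summed only over regions within 1000 bp of the start, the same 5 genes were called higher, where 4.17% of 11084 genes were. At this distance both GrnKO libraries were above both WT libraries at 7 of the 8 genes, against 25.4% of all genes. Atp6v1c1 held 176 and 279 normalised tags in WT and 363 and 338 in GrnKO and missed the threshold (log2 change 0.66, SE 0.20, limma adjusted p = 0.0549). Atp6v1b2 held 37.8 and 41.3 in WT and 64.3 and 73.7 in GrnKO (log2 change 0.79, SE 0.31, limma adjusted p = 0.168). For both genes the start-site regions are a small share of the sum.

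The 8 called regions of Atp6v1a, the gene of the catalytic subunit, lay in 2 blocks, at the promoter and in intron 1 of 14. Its promoter and first kilobase held 3 called regions, of which the one 763 bp downstream of the start went from 40.7 and 49.5 normalised tags in WT to 159 and 164 in GrnKO (chr16:44138096-44138896, log2 change 1.82, SE 0.23, limma adjusted p = 7.96e-05). The region 213 bp downstream held 122 and 92.2 in WT and 218 and 227 in GrnKO (log2 change 1.06, limma adjusted p = 0.00172), and its annotation too names the promoter of Naa50. Farther into intron 1, 2 regions with little signal in WT were called. The one at 1360 bp held 8.60 and 12.3 in WT and 57.1 and 45.7 in GrnKO (log2 change 2.20, limma adjusted p = 0.00224). The one at 2423 bp held 13.3 and 6.29 in WT and 41.0 and 25.4 in GrnKO (1.71, limma adjusted p = 0.0389). The call at 2423 bp was lost with no filter (limma adjusted p = 0.0682).

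The second block lay deeper in intron 1. The regions between the blocks, 12223 and 12624 bp from the start, were not called (log2 changes of 2.45 and 0.80). The first of these was called higher under the authors' scaling, a pseudocount of 5, the replicate block and without WT replicate 1 (limma adjusted p from 0.00073 to 0.037). Its highest region, at 18972 bp (chr16:44119887-44120687), held 66.5 and 93.2 normalised tags in WT and 195 and 203 in GrnKO (log2 change 1.32, SE 0.21, limma adjusted p = 0.000569). The region at 19286 bp overlaps it and held 57.9 and 89.3 in WT and 201 and 175 in GrnKO (1.37, limma adjusted p = 0.000813). The region at 20983 bp held 26.98 and 17.0 in WT and 83.4 and 98.7 in GrnKO (2.03, limma adjusted p = 0.000532). The last region assigned to the gene, in intron 6 at 30073 bp, did not follow the others, with 48.1 and 36.4 in WT and 39.9 and 39.4 in GrnKO (-0.08, limma adjusted p = 0.921).

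**Figure D3:**
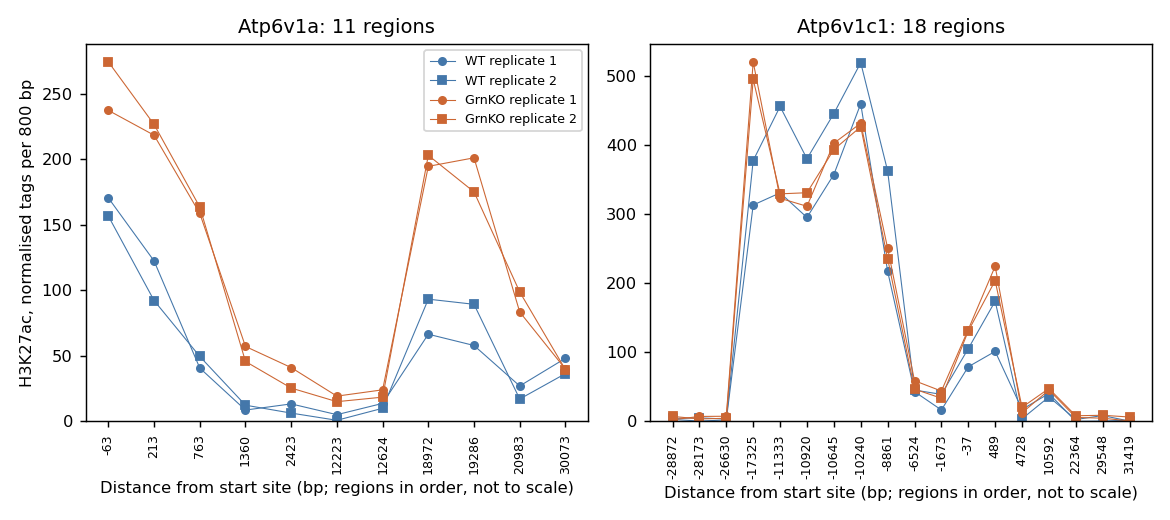
H3K27ac in normalised tags per 800 bp region for Atp6v1a (left, 11 regions) and Atp6v1c1 (right, 18 regions), in order of distance from the start site in bp and not to scale, with 1 line per library. The GrnKO lines run above the WT lines at both blocks of Atp6v1a, whereas at Atp6v1c1 they exceed both WT lines at 17325 bp upstream and at the start but lie among or below them from 11333 to 8861 bp upstream.

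Most of the signal assigned to Atp6v1c1 lay upstream and differed between neighbouring regions. The region 17325 bp upstream (chr15:38644179-38644979) was called higher, with 313 and 378 normalised tags in WT and 520.4 and 495 in GrnKO (log2 change 0.56, SE 0.13, limma adjusted p = 0.0115). The call was lost under the authors' scaling (0.79, limma adjusted p = 0.0686). The region with the most signal, 10240 bp upstream (chr15:38651264-38652064), held 459.9 and 519 in WT and 432 and 427 in GrnKO (-0.19, SE 0.12, limma adjusted p = 0.389). After TMM the 2 groups did not overlap there, with GrnKO below WT, an order that 26.4% of all distal regions showed. Before TMM both GrnKO libraries lay between the WT libraries, and under the authors' scaling the log2 change was 0.0385. The region 11333 bp upstream held 331 and 456 in WT and 323 and 329 in GrnKO (-0.25, limma adjusted p = 0.341). Without WT replicate 1 that region and the one 8861 bp upstream were called lower, and so was an Atp6v1g1 region 3941 bp downstream (5.49% of all regions were called lower). WT replicate 2 was the higher WT library at these 3. In an intron, at 489 bp downstream, Atp6v1c1 held 101 and 174 in WT and 225 and 204 in GrnKO (0.68, limma adjusted p = 0.0550), and it was called with a pseudocount of 5, the replicate block and without WT replicate 2.

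The distant signal assigned to Atp6v1b2 lay in an intergenic block 65125 to 83278 bp upstream, and assignment is by nearest start site only. Its highest region, 82705 bp upstream (chr8:69005631-69006431), held 129 and 131 normalised tags in WT and 105 and 80.3 in GrnKO (log2 change -0.50, SE 0.22, limma adjusted p = 0.166). After TMM both GrnKO libraries were below both WT libraries in 5 of the 7 regions of this block, and none was called. Of all distal regions, 26.4% showed that order. Before TMM the groups overlapped at the regions 83278, 82705, 81528 and 75954 bp upstream. Those at 83278 and 82705 bp also share tags. Nearer to the gene, at 50242 bp upstream, a region in the 3′ UTR of another gene held 4.69 and 7.86 in WT and 29.7 and 16.1 in GrnKO (1.69, limma adjusted p = 0.0789), and it was called under the authors' scaling, the replicate block and without WT replicate 2.

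At the remaining genes 1 distal region passed. It lies 3570 bp upstream of Atp6v1g1 (chr4:63540795-63541595) and held 31.3 and 23.3 normalised tags in WT and 83.7 and 99.4 in GrnKO (log2 change 1.72, SE 0.30, limma adjusted p = 0.00113). Within the gene, the region 720 bp downstream of the start held 39.1 and 57.9 in WT and 87.4 and 93.4 in GrnKO (0.91, SE 0.27, limma adjusted p = 0.0410). This call and that of the Atp6v1h promoter region were lost with edgeR, with DESeq2 and without WT replicate 1. The Atp6v1g1 region at 3941 bp held 17.6 and 49.2 in WT and 7.07 and 16.4 in GrnKO (-1.37, limma adjusted p = 0.129). Both GrnKO libraries were lower there after TMM, and the groups overlapped before it. With the replicate block this region was called lower (limma adjusted p = 0.0460). Atp6v1e1 had no called region, and its region 328 bp downstream came nearest, with 54.4 and 54.5 in WT and 100.1 and 88.4 in GrnKO (0.78, limma adjusted p = 0.0550). That region was called under the authors' scaling, a pseudocount of 5, the replicate block and without either WT replicate (limma adjusted p from 0.028 to 0.047).

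Over regions farther than 1000 bp from the start, 7 of 35 tested member regions were called higher, where 7.99% of all distal regions were. Both GrnKO libraries lay above both WT libraries in 17 of these and below in 8, where 28.2% and 26.4% of all distal regions did. The distal sums of 2 of the 8 genes passed, Atp6v1a and Atp6v1g1, where 11.7% of 11368 genes were higher. Atp6v1a held 235 and 265 normalised tags in WT and 670.1 and 628 in GrnKO (log2 change 1.38, SE 0.15, limma adjusted p = 6.85e-05). Atp6v1g1 held 72.2 and 89.4 in WT and 139.7 and 145 in GrnKO (0.82, SE 0.24, limma adjusted p = 0.0314). Distal sums did not pass at Atp6v1b2, with 496 and 555 in WT and 468 and 447 in GrnKO (-0.20, SE 0.14, limma adjusted p = 0.380), nor at Atp6v1c1, with 2050.1 and 2682 in WT and 2463 and 2425 in GrnKO (0.06, SE 0.12, limma adjusted p = 0.790). Atp6v1d, Atp6v1e1, Atp6v1f and Atp6v1h had few distal tags, at most 14.2 in any library, and their distal changes had standard errors of 0.56 to 1.06.

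**Figure D4:**
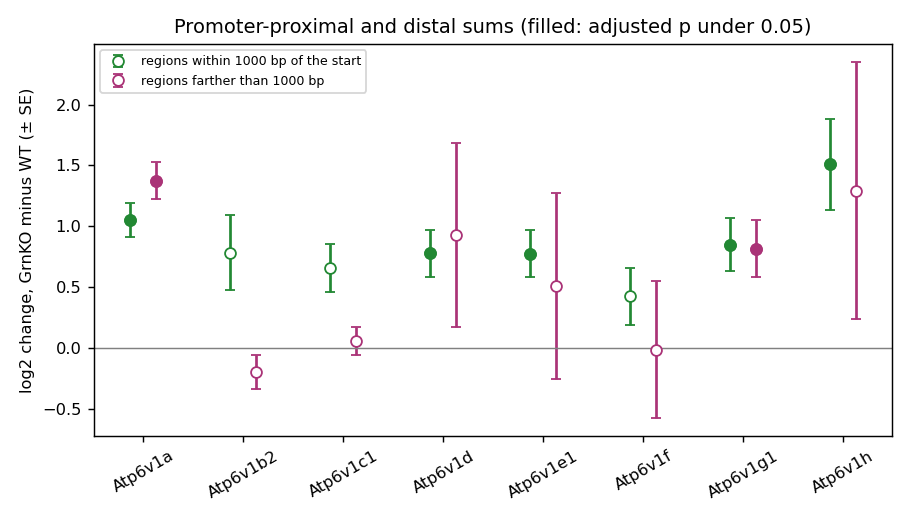
The log2 change of H3K27ac, GrnKO minus WT with its SE, for tags summed within 1000 bp of the start site (green) and farther away (purple) at each V1 gene, filled where the adjusted p was under 0.05. Proximal changes lie between 0.43 and 1.51 at all 8 genes, while distal changes at Atp6v1b2 and Atp6v1c1 lie at -0.20 and 0.06.

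The difference between proximal and distal change was tested gene by gene over 7324 genes with both kinds of region, a test added after the values were seen. It was 0.98 at Atp6v1b2 (SE 0.23, limma adjusted p = 0.187) and 0.60 at Atp6v1c1 (SE 0.14, limma adjusted p = 0.192), and none of the 8 genes passed. Of all genes tested, 0.0410% passed, so these data do not show that the proximal and distal signal of any V1 gene moved apart. As a share of the gene's tags, proximal regions of Atp6v1b2 held 7.09% and 6.93% in WT and 12.1% and 14.2% in GrnKO. Those of Atp6v1c1 held 7.91% and 9.41% in WT and 12.8% and 12.2% in GrnKO. At Atp6v1a the order was the opposite, with 58.1% and 52.9% in WT and 48.2% and 51.7% in GrnKO. Shares at the other 5 genes overlapped between genotypes. How often such shares separate over all genes was not computed, and the shares were not tested. The median share over the 8 genes was 72.3% in WT and 75.2% in GrnKO, and that difference of 2.88 percentage points became -0.20 without WT replicate 1.

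Other genes of the pump gave calls in both directions. Of 29 listed genes 28 had a region and 27 were tested, of which 9 were called higher and 2 lower, with a median log2 change of 0.19. Of all genes, 9.54% were called higher and 4.88% lower. Without GrnKO replicate 1 or 2, 3 and 2 of the 27 were called higher and 1 lower, where 5.64% and 6.98% of all genes were called in either direction. In the V0 sector, whose ring and a subunits carry the protons, 5 of 10 were higher and 1 lower, with a median of 0.32. Atp6v0d2, a d subunit found in osteoclasts and macrophages, held 569 and 629 normalised tags in WT and 1133 and 961 in GrnKO (log2 change 0.80, SE 0.13, limma adjusted p = 0.000536). Its widely expressed counterpart Atp6v0d1 held 229 and 314 in WT and 396 and 478 in GrnKO (0.70, limma adjusted p = 0.0150). Atp6v0e, the gene of a small membrane subunit, held 307 and 311 in WT and 466 and 488 in GrnKO (0.62, limma adjusted p = 0.00866), though its distal regions alone gave -0.71.

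Of the 4 genes of the a subunit, which forms the path of the protons, 1 was called lower and 1 higher. Atp6v0a2, an isoform found at the Golgi and endosomes, fell from 1130.0 and 1024 normalised tags in WT to 559.9 and 639 in GrnKO (log2 change -0.85, SE 0.12, limma adjusted p = 0.000276). Tcirg1, the a3 isoform of osteoclasts and lysosomes, rose from 2308 and 2296 to 2848 and 2979 (0.34, SE 0.09, limma adjusted p = 0.0179). Atp6v0a4 (-0.39, both GrnKO libraries below WT, limma adjusted p = 0.102) and Atp6v0a1 (0.08, overlapping, limma adjusted p = 0.721) were not called. The ring gene Atp6v0c rose from 2071 and 2223 to 2588 and 2711 (0.30, SE 0.09, limma adjusted p = 0.0387). Under the authors' scaling neither Tcirg1 (0.53, limma adjusted p = 0.191) nor Atp6v0c (0.49, limma adjusted p = 0.233) was called.

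Genes that assemble or regulate the pump gave 4 of 11 higher and 1 lower, with a median of 0.24. Dmxl2, which encodes a rabconnectin that helps V1 join V0, had the steepest rise of the list, from 32.1 and 48.9 normalised tags in WT to 211 and 218 in GrnKO (log2 change 2.41, SE 0.26, limma adjusted p = 2.08e-05). Its paralog Dmxl1 held 78.3 and 96.7 in WT and 162 and 161 in GrnKO (0.88, limma adjusted p = 0.0153). Wdr7, a partner of the rabconnectins, held 25.98 and 29.8 in WT and 78.1 and 50.6 in GrnKO (1.15, limma adjusted p = 0.0436). The Wdr7 call was lost with no filter (limma adjusted p = 0.0653). Ncoa7 was the fourth called higher (0.64, limma adjusted p = 0.0455). Rogdi, another partner, fell from 459 and 428 to 336 and 302 (-0.48, SE 0.15, limma adjusted p = 0.0446), a call lost under several alternatives, among them the authors' scaling (-0.29, limma adjusted p = 0.550), edgeR, non-overlapping regions and the fits without WT replicate 1, GrnKO replicate 1 or GrnKO replicate 2. Of 3 accessory genes and of 3 tested genes of other V1 isoforms none was called, with medians of 0.08 and 0.00079 (1 and 0 at an unadjusted p under 0.05). Atp6v1g2 and Atp6v1g3, isoforms of the stalk subunit G known from neurons and kidney, held 466 to 534 and 512 to 596 normalised tags over the 4 libraries, and their groups overlapped.

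**Figure D5:**
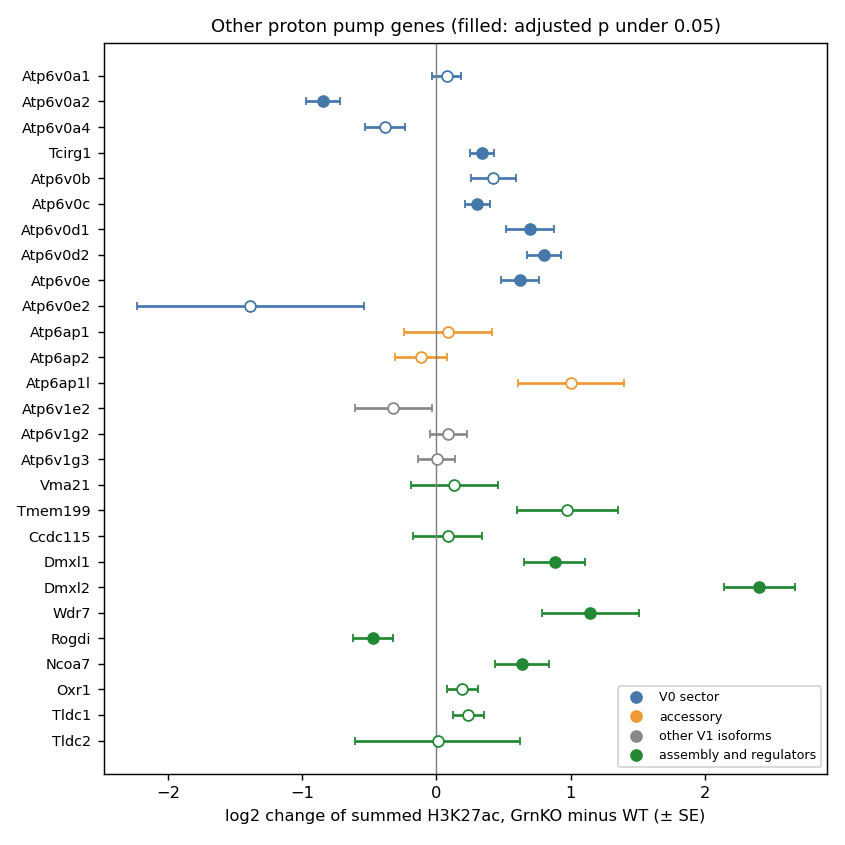
The log2 change of summed H3K27ac, GrnKO minus WT with its SE, for the 27 tested pump genes other than the 8 V1 members, coloured by list and filled where the adjusted p was under 0.05. The 9 genes called higher lie between 0.30 and 2.41, and Atp6v0a2 and Rogdi lie at -0.85 and -0.48.

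Among all genes that are no member, the summed profiles most like the mean profile of the V1 genes over the 4 libraries included those of Por and 4930479D17Rik, by Euclidean distance of centred log2 values (0.022 and 0.034). Por, which encodes cytochrome P450 reductase, held 211 and 259 normalised tags in WT and 372 and 365 in GrnKO. Por was chosen for its likeness to that profile, so the order of its libraries is no separate result.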

How the data were processed

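H3K27ac and input were sequenced in 4 replicate pools, and the authors deposited 1 table with 8 columns of values, all matched to samples by title. Its unit is a signal: per the file headers, the authors counted tags in 129304 regions from accessible-chromatin peaks and scaled each library to 10000000 tags, HOMER style. Per the submitters' processing notes, the build was mm10 and the tools were Bowtie2, HOMER and DESeq2, with no roles or versions given. Multiplying by the library totals returned whole read ends, at 2 per tag, for 100% of values (tolerance 0.005 scaled tags).

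From these values, regions with too few tags were left out (edgeR 4.0.16 filterByExpr, minimum 10), TMM factors were applied (0.825 and 1.04 in WT, 1.08 and 1.08 in GrnKO for regions), and limma 3.58.1 (lmFit, eBayes with trend, R 4.3.3) was run on log2(value + 1), which understates changes of low values. The deposited scaling, read without TMM, was an alternative, as were edgeR and DESeq2 1.42.0 on the recovered read ends. All p-values are two-sided and were adjusted over all features of a fit. With 2 libraries against 2, an exact permutation test allows no p under 0.333, so none was used. The models were also run on counts simulated with a common dispersion. The outcome is not given here and is no support for the results.

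The members and lists were chosen with earlier results of these data known. Named were all 8 members with their nearest, highest and called regions, up to 10 called pump genes by smallest p and the 3 most similar genes, of which 1 is not reported here. Ncoa7, the neighbouring genes and the other regions were named after their values were seen. Distances are those of the table, from region centre to nearest start. Same-numbered replicates are different mice, and the main fits used no pairing. Of the pump list, Meak7 is the current symbol of Tldc1, which the table uses, and the 2 symbols were counted as 1 gene. Atp6v1c2 had no region in the table and entered only the motif search.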

Additional observations from a re-analysis of the deposited data

How the results depend on the processing

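Of 609 values recomputed under alternatives, 483 kept their direction and side of the threshold (for counts, stayed within 1.5 times), 76 lost and 12 gained a call, 11 changed sign and 27 counts moved further. The 5 V1 genes kept their calls under the authors' scaling, a pseudocount of 5, no filter (features with at least 1 tag), edgeR, DESeq2, the replicate block, non-overlapping regions, proximal regions, region TMM factors (an alternative chosen after seeing the data) and without WT replicate 1. Leaving out 1 library in turn gave 1 to 7 V1 genes higher, 4 to 22 V1 regions higher and 0 to 3 lower, 2 to 10 other pump genes higher and 1 to 2 lower, 868 to 3658 genes and 1334 to 14415 regions called, and a difference in median proximal share of -0.20 to 8.40 percentage points. These fits have 1 residual degree of freedom, and the lone sample is assumed to vary like the other groups. Without GrnKO replicate 1 and 2 the adjusted p was 0.12 and 0.12 at Atp6v1d, 0.19 and 0.091 at Atp6v1e1, 0.052 and 0.052 at Atp6v1g1 and 0.052 and 0.15 at Atp6v1h. Distal regions alone gave 2 V1 genes and 4 other pump genes higher and 1 lower, and proximal regions alone gave 4 other pump genes higher and 1 lower. Other pump genes called lower also numbered 1 under the authors' scaling, edgeR and non-overlapping regions.

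Same-numbered libraries did not deviate together (r = 0.034 across 80728 regions, which are not independent, from 2 pairs). With so few pairs this check cannot decide whether same-numbered samples share a batch. With the replicate block, V1 regions called higher numbered 21 and lower 1, while the calls over all regions went from 7842 to 11391. Signs changed at Atp6v1b2 (0.0902 under the authors' scaling, 0.79 over proximal regions), Atp6v1c1 (-0.0835 without WT replicate 1, against 0.33 without WT replicate 2), Atp6v1f (-0.0116 over distal and -0.0563 over non-overlapping regions) and Atp6v0e (-0.71 over distal regions), all summed. They also changed at the Atp6v1c1 region 10240 bp upstream (0.0385 under the authors' scaling) and the Atp6v1f region 117 bp upstream (0.12 under that scaling, and -0.33 to 0.12 when 1 library was left out, with 0.0917 without WT replicate 2). The authors' scaling moved the median log2 change of all genes to 0.18, with the V1 median at 0.96. The proximal, distal and non-overlapping sums hold fewer regions by construction, and the cause of these changes was not tested. Depth limits regions with few tags, such as those of Atp6v1h, with 24.8 normalised tags summed in WT replicate 1.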
